A study of Mus musculus with 2 samples.

Results

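The 7 genes that encode NMDA receptor subunits in the mouse, Grin1, Grin2a, Grin2b, Grin2c, Grin2d, Grin3a and Grin3b, were read by symbol from a deposited expression profile of 55536 genes. Their 39 annotated transcripts were taken out of 141864 transcript rows. The tissue was left cerebral cortex, taken at 2 months from males of B6CASTF1/J, the first-generation hybrid of C57BL/6J and CAST/EiJ. There were 2 animals, 1 total RNA library each after ribosomal RNA removal, and the labels give no treatment and no altered allele. They number the libraries replicate 2 and replicate 1 of 1 group, so the data describe levels, transcript forms and the difference between the animals, with no comparison of conditions. No p-value is given, since with 2 animals the smallest p of an exact sign test is 0.5.

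NMDA receptors are glutamate-gated channels that pass calcium when glutamate and a co-agonist, glycine or D-serine, are bound while the membrane is depolarised. Each receptor joins a pair of GluN1 subunits, encoded by Grin1, with a pair of GluN2 or GluN3 subunits, and the choice among these sets its kinetics, magnesium block and binding partners. In the forebrain GluN2B is the early GluN2 subunit and GluN2A is added as the cortex matures, and GluN1 itself is varied by splicing of an amino-terminal cassette, N1, and of the carboxy-terminal tail, C1 and C2 or C2′.

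Splice choices that change the protein were annotated in Grin1 and Grin3a, and their sequences are shown because the form shares given later rest on them. All are coding sequence of GENCODE M21 transcripts on build mm10 and are written 5′ to 3′ on the minus strand. The N1 cassette (chr2:25311343-25311405) is exon 4 of transcript Grin1-204 and adds 21 codons. The C1 exon (chr2:25294438-25294548) is exon 19 of Grin1-201 and adds 37 codons. The C2 coding end (chr2:25292371-25292484), 38 codons, lies in the last exon, and the C2′ forms skip 356 bases at the start of that exon and read 22 other codons. The Grin3a insert (chr4:49665566-49665625), 20 codons, is the start of exon 9 of Grin3a-202, reached by an earlier splice acceptor.
Grin1 N1 cassette: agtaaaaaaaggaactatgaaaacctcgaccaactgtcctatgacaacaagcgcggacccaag
Grin1 C1 exon: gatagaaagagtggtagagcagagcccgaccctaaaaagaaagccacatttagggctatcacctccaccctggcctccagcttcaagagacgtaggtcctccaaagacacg
Grin1 C2 coding end: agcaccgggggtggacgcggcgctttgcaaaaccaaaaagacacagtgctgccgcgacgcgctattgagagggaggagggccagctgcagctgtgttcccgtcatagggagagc
Grin3a insert: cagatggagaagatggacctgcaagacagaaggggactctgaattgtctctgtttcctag

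The junctions that tell the Grin1 forms apart are shown as the last 15 bases of the upstream exon in lower case and the first 15 bases of the downstream exon in capitals. The kinds of choice follow each other along the transcript, N1 in or out, C1 in or out, and C2 or C2′ at the end.
N1 included: gagcgtgagtccaagAGTAAAAAAAGGAAC
N1 skipped: gagcgtgagtccaagGCAGAGAAGGTGCTG
C1 included: aggaagaacctgcagGATAGAAAGAGTGGT
C1 skipped, C2 end: aggaagaacctgcagAGCACCGGGGGTGGA
C1 skipped, C2′ end: aggaagaacctgcagCAGTACCATCCCACT
C1 with C2 end: tcctccaaagacacgAGCACCGGGGGTGGA
C1 with C2′ end: tcctccaaagacacgCAGTACCATCCCACT

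The libraries held 32032103 expected counts in replicate 2 and 32866391 in replicate 1. A count of 0 allows up to 3 counts, or 0.0937 and 0.0913 CPM (counts scaled to a library of 1000000), which covers counting error only. Levels are TPM, transcript abundances per length scaled to a total of 1000000, as the authors deposited them from an alignment to the transcriptome (here the alignment-based quantification), and transcript forms are given beside a separate deposited estimate made from the reads of 1 sequence file (the read-based quantification). Markers of excitatory neurons (6 of 6 at 1 TPM or more in both libraries, summed at 2744 and 2661 TPM in replicate 2 and replicate 1) and of inhibitory neurons (7 of 7, 519.5 and 561 TPM) were present, as the tissue label has it. Of the 5 markers of cerebellar granule neurons 1 was at 1 TPM or more in both libraries, Neurod1 at 7.39 and 7.81 TPM, and the list summed to 7.63 and 8.36 TPM with Barhl1 at 0.

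Grin1, the gene of the obligatory glycine-binding subunit (ENSMUSG00000026959.13, chr2:25291181-25319187, minus strand), was the highest of the 7. It was at 199.7 TPM in replicate 2 and 192 TPM in replicate 1 (196 ± 5.37, SD, n = 2). This placed it 302nd and 347th among 22015 nuclear protein-coding genes.

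Of the GluN2 genes, which encode the glutamate-binding subunits, Grin2b and Grin2a were high and Grin2c and Grin2d low. Grin2b (ENSMUSG00000030209.14, chr6:135713233-136173511, minus strand) was at 135 TPM in replicate 2 and 128 in replicate 1 (132 ± 4.85). Grin2a (ENSMUSG00000059003.12, chr16:9567898-9995560, minus strand) was at 121 and 113 TPM (117 ± 5.99). The ranges of these neighbours in the order did not overlap, though they were close. In bulk tissue, a lower level from fewer cells of a type and from less RNA per cell cannot be told apart.

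Grin2c, known for its expression in cerebellar granule neurons and in astrocytes of the forebrain (ENSMUSG00000020734.13, chr11:115249169-115267243, minus strand), was at 17.7 TPM in replicate 2 and 17.9 in replicate 1 (17.8 ± 0.141). Grin2d, known from the embryonic brain and from adult interneurons (ENSMUSG00000002771.12, chr7:45831883-45878378, minus strand), was at 5.90 and 5.53 TPM (5.71 ± 0.262). These genes lay far below Grin2a in each animal: Grin2c at 0.146 and 0.159 times its TPM, and Grin2d at 0.0487 and 0.0491 times. Markers of astrocytes, 6 of 6 detected, summed to 1429.9 TPM in replicate 2 and 1437 in replicate 1. Which cells the Grin2c transcripts came from was not tested.

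The GluN3 genes encode glycine-binding subunits that lower calcium entry. Grin3a (ENSMUSG00000039579.15, chr4:49661611-49845744, minus strand) was at 13.3 TPM in replicate 2 and 13.6 in replicate 1 (13.5 ± 0.262), between Grin2c and Grin2d. Grin3b, known from motor neurons (ENSMUSG00000035745.9, chr10:79970715-79977190, plus strand), rested on 5 and 4 expected counts, 0.09 and 0.06 TPM. It was the only member below 1 TPM, and 6 of the 7 genes were among the 12921 protein-coding genes at 1 TPM or more in both libraries.

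The order of the 7 by TPM was Grin1, Grin2b, Grin2a, Grin2c, Grin3a, Grin2d, Grin3b in both animals, and the values of neighbours did not overlap between the animals. The narrower steps were Grin2b over Grin2a and Grin2c over Grin3a, at 1.13 ± 0.0162 and 1.32 ± 0.0152 times. In the read-based quantification the order differed in 1 place: Grin2b was at 169 TPM in replicate 2 and 158 in replicate 1, against 187 and 170 TPM for Grin2a. There the range of Grin2b ended just below that of Grin2a.

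**Figure D1:**
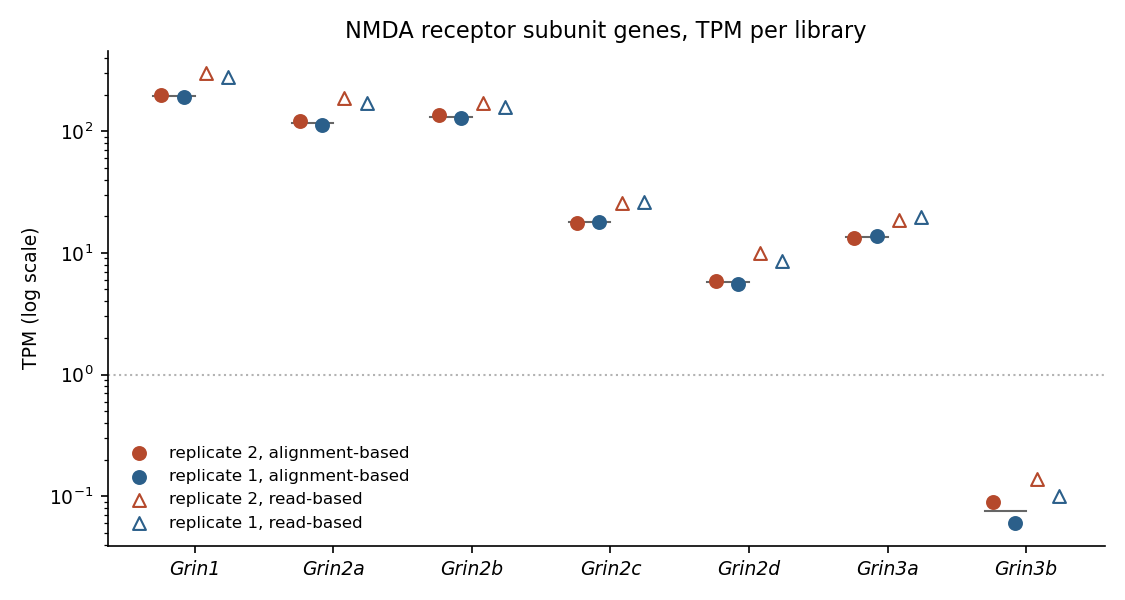
TPM of each subunit gene on a log scale, in replicate 2 (red) and replicate 1 (blue), from the alignment-based (filled circles) and read-based (open triangles) quantifications; short lines are alignment-based means over 2 animals and the dotted line is 1 TPM. Grin1 is highest, Grin2a and Grin2b follow, and Grin3b at 0.09 and 0.06 TPM lies alone below the dotted line.

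Together the 7 genes summed to 493 TPM in replicate 2 and 470.1 in replicate 1, and they took 0.283% and 0.261% of the expected counts. Counts and TPM rank them differently, because counts scale with length and these transcripts differ widely in it. Grin2b held 49.9% and 48.7% of the counts of the 7 but 27.4% and 27.3% of their TPM. Grin1 held 17.8% and 18.6% of the counts but 40.5% and 40.9% of the TPM. Effective lengths, the deposited average over each gene's transcripts, were 15646 and 14951 bases for Grin2b against 3773 and 3808 for Grin1.

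**Figure D2:**
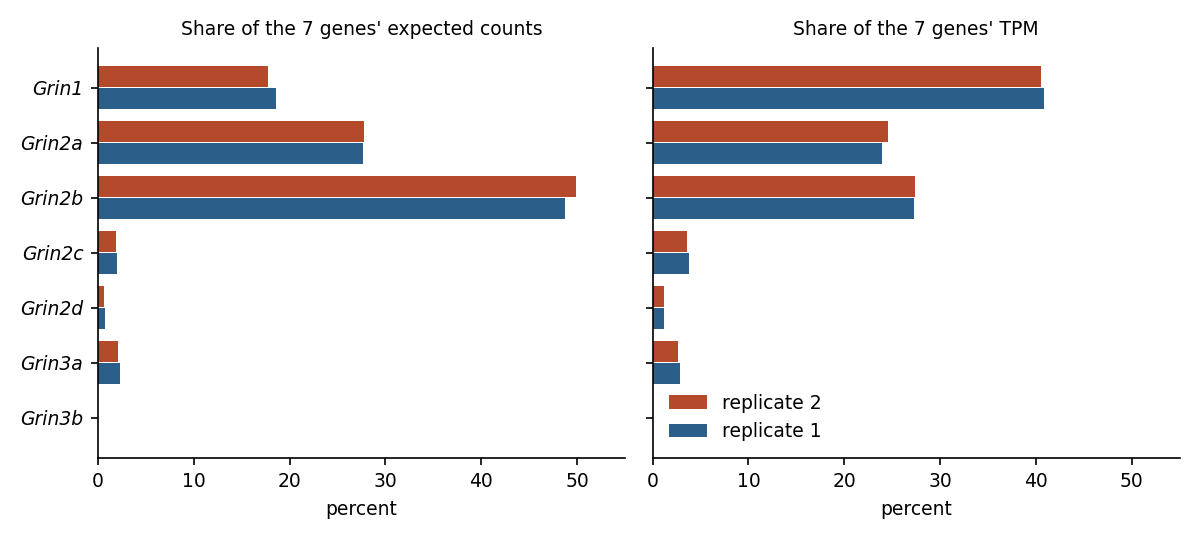
Percent of the 7 genes' expected counts (left) and of their TPM (right) held by each gene, in replicate 2 (red) and replicate 1 (blue). Grin2b holds the longest bars for counts, 49.9% and 48.7%, and Grin1 the longest for TPM, 40.5% and 40.9%.

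Grin1 TPM was below the sum of the 4 GluN2 genes. The ratio of Grin1 to that sum was 0.714 in replicate 2 and 0.727 in replicate 1 (0.720 ± 0.00928, per length). Read-based values gave 0.763 and 0.774. Grin2a and Grin2b together made up 256 and 241 TPM of a GluN2 sum of 279.8 and 264. The GluN3 genes stood at 0.0477 and 0.0518 times the GluN2 sum.

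Grin1 has 14 annotated transcripts, and 8 of them encode a full-length subunit, here meaning a complete coding sequence at least 0.5 times as long as the longest of the gene. These 8 are the 8 combinations of N1 in or out, C1 in or out, and C2 or C2′. By TPM Grin1-201, with C1 and C2 but no N1 (938 codons), led at 33.0% of the gene in replicate 2 and 37.4% in replicate 1. Grin1-205, the shortest form with C2′ alone (885 codons), followed at 21.7% and 21.8%. In the read-based quantification these exchanged places, with Grin1-205 at 30.9% and 28.5% and Grin1-201 at 18.3% and 24.9%.

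The other full-length forms were estimated with less certainty. Grin1-206, with C1 and C2′, was at 21.8 TPM in replicate 2 and 0.05 TPM in replicate 1. Grin1-202, with C2 alone, was at 0.96 and 19.9 TPM. Grin1-203, with N1 and C2, was at 23.4 and 5.94 TPM, so these forms differed several-fold between the animals and in no common direction. Grin1-208, with N1, C1 and C2′, was at 7.52 and 20.98 TPM. Grin1-204, which has N1, C1 and C2, was at 12.5 and 11.99 TPM, but at 47.2 and 42.2 TPM in the read-based quantification. The deposited posterior SD of its count was 791.5 on 1119.3 counts in replicate 2 and 723.3 on 1090.4 in replicate 1. The closeness of its alignment-based values between the animals thus does not make its level certain. Grin1-207, with N1 and C2′, was listed at 0 TPM in all 4 transcript tables.

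For these forms the deposited posterior SD of the count was large, for example 549.5 counts on 1759.9 for Grin1-206 in replicate 2 and 468 counts on 3.81 in replicate 1. The deposited posterior means for Grin1-206 were closer together, 20.7 TPM in replicate 2 and 11.1 in replicate 1, and the read-based values were 16.8 and 15.3 TPM. For Grin1-207, listed at 0 TPM, the posterior means were 5.39 TPM in replicate 2 and 2.2 in replicate 1. Its posterior SD was 213.5 and 136.7 counts, so its absence was not settled. Of the 8 forms, 7 hold no stretch of 31 bases that is absent from the other Grin1 transcripts, and Grin1-205 holds 24, so the division of reads among them rests on combinations of junctions. The annotated starts differ too: the 4 forms with N1 begin at position 25319095, Grin1-205 at 25319187 and the other 3 at 25319120.

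**Figure D3:**
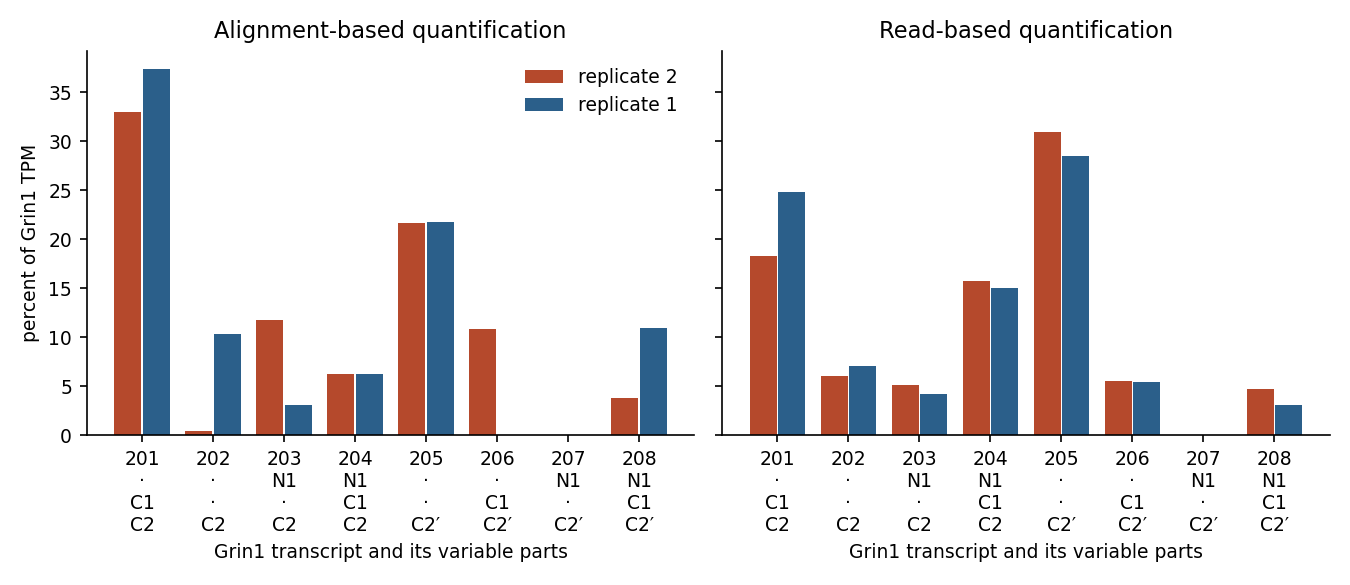
Percent of Grin1 TPM in each of the 8 full-length forms, labelled by the variable parts they contain, in replicate 2 (red) and replicate 1 (blue), for the alignment-based (left) and read-based (right) quantifications. Grin1-201 has the tallest bars on the left and Grin1-205 on the right, and the bars of Grin1-202, Grin1-203, Grin1-206 and Grin1-208 differ between the animals on the left more than on the right.

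Summed over forms, the splice choices differed far less between the animals. N1, the cassette that speeds deactivation and relieves proton inhibition, was included in 24.8% of full-length Grin1 TPM in replicate 2 and 22.6% in replicate 1 (23.7 ± 1.58), and in 29.7% and 25.3% by the read-based quantification. C1, which carries phosphorylation sites and an endoplasmic reticulum retention signal, was included in 61.4% and 60.8% (61.1 ± 0.461). Read-based shares of C1 were lower, 51.3% and 54.9%. C2′, whose end binds PDZ-domain proteins and favours export to the surface, ended 41.4% and 36.5% (38.9 ± 3.49), and 47.7% and 41.97% by the read-based quantification.

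C1 was more often included in forms ending in C2 than in forms ending in C2′. Among C2 forms its share was 76.3% in replicate 2 and 76.4% in replicate 1, against 40.3% and 33.4% among C2′ forms. Read-based shares were 75.2% and 78.0% among C2 forms, against 25.1% and 23.1% among C2′ forms. The ranges did not overlap in either quantification.

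**Figure D4:**
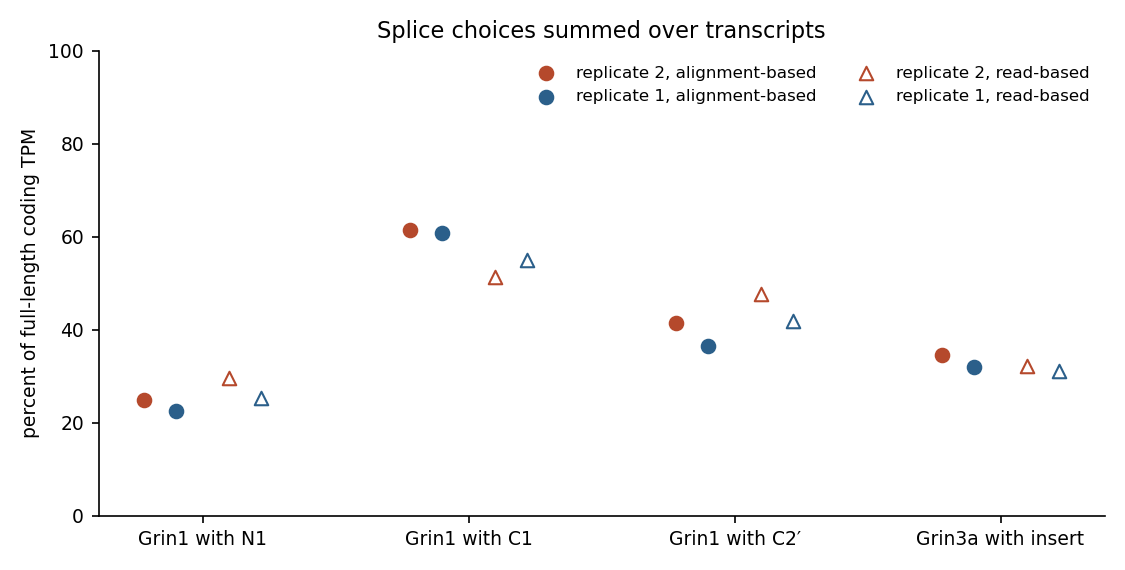
Percent of full-length coding TPM that includes N1, C1 or C2′ in Grin1 and the 20-codon insert in Grin3a, in replicate 2 (red) and replicate 1 (blue), from the alignment-based (filled circles) and read-based (open triangles) quantifications. C1 is the most frequent choice, and the Grin3a insert lies between 31.1% and 34.5% in all 4 values.

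The remaining 6 Grin1 transcripts, annotated as processed transcripts without a coding sequence, summed to 12.2% of the gene's TPM in replicate 2 and 10.2% in replicate 1. In replicate 2 the largest of them, Grin1-214, reached 10.02 TPM, against 7.26 TPM in replicate 1. This row, at a mean share of 4.40%, and Grin1-207 fell under the 5% mean share for naming and were chosen after their values were seen. Grin1-214 holds sequence of its own in 76.0% of its 31-base words, and its posterior SD was 1.74% and 2.08% of its count. Among the annotated transcripts, those reads were thus assigned to 1 row with more certainty than those of the full-length forms. The words were not compared with introns, so whether the reads came from this transcript or from unspliced Grin1 RNA was not tested.

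Grin2a has 6 transcripts, of which Grin2a-201, Grin2a-202 and Grin2a-206 all encode 1464 codons. Grin2a-201 held 1.68% and 2.50% of its TPM and is named outside the 5% share, after its values were seen. Grin2a-206, which is 14634 bases long, led at 56.0% of Grin2a TPM in replicate 2 and 55.3% in replicate 1 (read-based 50.7% and 49.9%). Grin2a-202, 5023 bases long, held 20.6% and 20.99%. All 3 share the same annotated coding coordinates, so they differ in their untranslated parts.

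The 3 Grin2a rows without a full-length coding sequence summed to 21.8% of its TPM in replicate 2 and 21.2% in replicate 1. Grin2a-204, a retained intron at the 5′ end of the gene, was at 13.2 and 12.1 TPM. Grin2a-205, a processed transcript of 602 bases, was at 4.73 and 7.68 TPM on 50.8 and 84.1 expected counts, but at 28.3 and 24.3 TPM on 129 and 108 counts in the read-based quantification. The deposited effective length of that row was 503 bases in the alignment-based table and 273 and 260 bases in the read-based tables. Grin2a-203, a retained intron, was at 8.44 and 4.18 TPM and was listed at 0 in the read-based tables.

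Grin2b has 7 transcripts, and both full-length forms, Grin2b-201 and Grin2b-202, encode 1482 codons. Grin2b-201, which at 24060 bases extends farther at the 3′ end, led at 58.9% of Grin2b TPM in replicate 2 and 55.6% in replicate 1 (read-based 71.5% and 67.4%). Grin2b-202, 7484 bases long, held 17.9% and 18.8%. As in Grin2a, the longest transcript led and the annotated coding coordinates were the same.

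The 5 other Grin2b rows, which lack a full-length coding sequence, summed to 23.2% of its TPM in replicate 2 and 25.6% in replicate 1, but to 10.9% and 14.6% in the read-based quantification. Grin2b-206, 601 bases long, was at 16.7 and 11.8 TPM on 179 and 129 counts. Grin2b-204, 703 bases long, was at 8.36 and 10.6 TPM, and the truncated Grin2b-205 (337 codons) at 6.33 and 7.81 TPM. The read-based tables put Grin2b-206 at 0 in replicate 2 and 19.4 TPM in replicate 1, and Grin2b-204 at 0 in both.

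These short rows bear on the order of Grin2b and Grin2a. Over all transcripts Grin2b was at 1.11 times Grin2a in replicate 2 and 1.14 times in replicate 1, and at 0.905 and 0.932 times by the read-based quantification. Over full-length coding transcripts only, a restriction chosen after the data were seen, Grin2b was at 104 and 95.3 TPM and Grin2a at 94.7 and 88.8 TPM, a ratio of 1.095 and 1.074. Read-based values over the same transcripts gave 1.07 and 1.04. In that restriction Grin2b was higher than Grin2a in both animals and in both quantifications. Grin1 stood at 0.793 and 0.832 times the GluN2 sum over full-length transcripts, and at 0.798 and 0.828 times in the read-based values.

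Grin2c has 2 transcripts, Grin2c-201 and Grin2c-202, which share their annotated coding coordinates, 1239 codons, and differ at the 5′ end. Grin2c-201 held 60.7% of the TPM in replicate 2 and 63.7% in replicate 1. The read-based quantification gave 45.9% and 61.2%, so the leading transcript there differed between the animals. In Grin2d both full-length forms encode 1323 codons, and Grin2d-201 led at 63.2% and 57.5%, ahead of Grin2d-203 at 20.3% and 37.97%. The partial row Grin2d-202 held 16.4% and 4.52% on 18.8 and 4.97 counts.

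Grin3a forms differ in the protein. Grin3a-201 (1115 codons) held 51.4% of Grin3a TPM in replicate 2 and 58.0% in replicate 1, and Grin3a-202 (1135 codons), which carries the insert shown above, 27.1% and 27.3%. Among these full-length forms the insert was included in 34.5% and 32.0% (33.3 ± 1.81), and in 32.2% and 31.1% by the read-based quantification. The ranges of the quantifications overlapped. Grin3a-203, a processed transcript of 3799 bases, held 20.5% and 14.2%.

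Grin3b-201, the full-length form of 1003 codons, was assigned 3.72 of the gene's 5 counts in replicate 2 and all 4 in replicate 1. The partial Grin3b-203 took the other 1.28 counts of replicate 2. At this depth no form shares could be compared for Grin3b.

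Between the animals the subunit genes differed little. The log2 ratio of replicate 2 over replicate 1, from normalised counts, was 0.14 for Grin2b (95% counting interval 0.13 to 0.16), 0.12 for Grin2a (0.09 to 0.14) and 0.05 for Grin1 (0.01 to 0.08). It was −0.01 for Grin2c (−0.10 to 0.09), −0.05 for Grin2d (−0.22 to 0.12) and −0.09 for Grin3a (−0.18 to 0.00), whose intervals include 0. Grin3b was below the minimum mean count of 10. The intervals cover counting error only, and 1 animal against 1 animal has no replicate check.

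None of the 6 measured members was past 2-fold, against 1.80% of the 18490 genes compared. Beyond counting error lay 3 of 6, all higher in replicate 2, against 22.6% of all genes in either direction, 11.0% higher and 11.6% lower. Those 3 genes have the most reads of the 7, and among the 472 genes that averaged 10000 counts or more, 71.6% lay beyond counting error, so this count is not a result about the subunits. The median absolute log2 ratio of the 6 was 0.07, and that of all genes compared was 0.11. In the read-based quantification Grin2a and Grin2b were higher, Grin3a lower at −0.14, and Grin1 at 0.03 was within counting error.

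**Figure D5:**
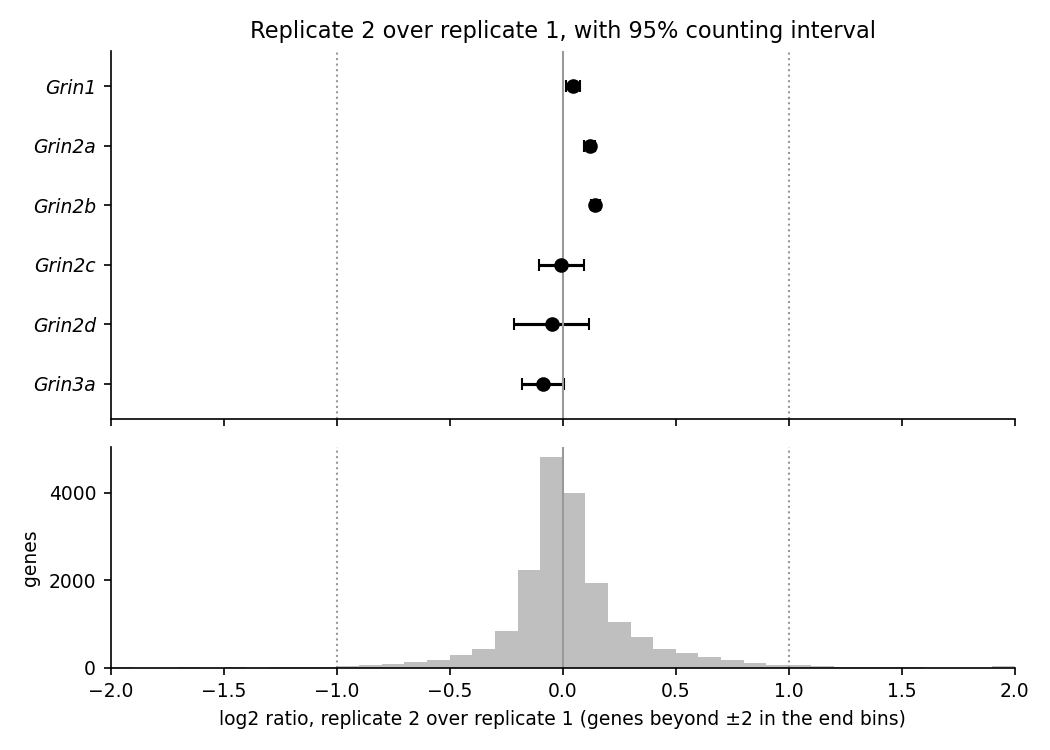
Log2 ratio of replicate 2 over replicate 1 for the 6 measured subunit genes with 95% counting intervals (top), above the histogram of the same ratio over 18490 genes (bottom), with dotted lines at 2-fold. All 6 lie between −0.09 and 0.14, near the middle of the distribution.

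Some marker lists of other regions and cells moved with the same contrast, and others moved little. Striatal neuron markers were lower in replicate 2 beyond counting error in 7 of 7 genes, summed at 144 TPM in replicate 2 and 264 in replicate 1, with none at 0. Mature oligodendrocyte markers were lower in 6 of 6, at 626 and 774 TPM. Lower were also 5 of 7 inhibitory neuron markers, 4 of 6 astrocyte markers with 1 higher, 2 of 4 hippocampal neuron markers and 2 of 5 thalamic neuron markers with 1 higher. Of 6 excitatory neuron markers 1 was higher and 1 lower. Beyond counting error lay none of 5 microglia markers. Lower were 1 of 4 endothelial, 2 of 4 oligodendrocyte precursor and 1 of 3 measured cerebellar granule neuron markers. Over all genes 11.6% were lower and 11.0% higher, and over genes that averaged 10000 counts or more 42.2% and 29.4%. Of 3 measured choroid plexus markers 2 were higher, Ttr and Kl. Ttr was at 89.2 TPM in replicate 2 and 8.58 TPM in replicate 1, and Kl at 2.18 and 1.8 TPM. The part of these marker differences in the subunit ratios was not tested.

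Genes that work with the receptor were read as 6 lists of partners by role, 55 genes in all. Of the 53 measured, none was past 2-fold, 8 were higher and 11 lower in replicate 2 beyond counting error, and the median log2 ratio was −0.02 against 0.00 over all genes. Over all genes 1.80% were past 2-fold, 11.0% higher and 11.6% lower. Of the 13 partners that averaged 10000 counts or more 8 lay beyond counting error, against 71.6% of all genes at that depth. By read-based counts, an alternative for the partners added after the data were seen, 6 were higher and 22 lower. Over all 20379 genes compared that way, 2340 were higher and 2732 lower. The read-based share among genes of high counts was not computed. These read-based counts, here and for each list, are thus not a result about the partners. Partners named only because they lay beyond counting error or were too low to measure were chosen after their values were seen. Scaffold genes that anchor GluN2 tails in the postsynaptic density were high throughout. Dlg4, the main scaffold there, was at 361 TPM in both animals, Shank1, which links it to the cytoskeleton, at 282 and 263 TPM, and Dlgap1, which joins Dlg4 to Shank proteins, at 219.7 and 217 TPM. All 13 of this list were measured, of which 9 averaged 10000 counts or more. Beyond counting error 4 were higher and 1 lower, or 3 and 7 by read-based counts, and Shank1 had the widest ratio, a log2 of 0.11 (read-based 0.07).

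The kinases and phosphatases summed to 2542 TPM in replicate 2 and 2485 in replicate 1. Camk2a, the kinase subunit that binds the GluN2B tail, was at 1181 and 1096 TPM, Ppp3ca, the catalytic subunit of calcineurin, at 392 and 402 TPM, and Camk2b at 268 and 281 TPM. Of the 12 genes 2 were higher beyond counting error, Camk2a and Camk2g, and 4 lower, Camk2b, Ppp3ca, Ptpn5 and Fyn. By read-based counts 1 was higher and 6 lower, against 2340 and 2732 of all 20379 genes. By alignment-based counts, the 3 of the 12 that averaged 10000 or more were all called, where 71.6% of genes at that depth are. Ptpn5, a phosphatase that acts on GluN2B and is abundant in striatum, had the widest ratio, −0.11, with a log2 ratio of TPM of −0.06.

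Trafficking and anchoring genes were led by Lin7b at 78.8 TPM in replicate 2 and 70.6 in replicate 1 and Apba1 at 56.0 and 58.6 TPM, both from the adaptor complex that loads GluN2B cargo on a kinesin motor. The actin-binding Actn1 was at 57.3 and 51.7 TPM. Of 11 genes Actn1 was higher and Apba1 lower beyond counting error, and Actn2 had the widest ratio, −0.22, within its counting interval (−0.45 to 0.01), and −0.12 by read-based counts. The median log2 ratio of the list was 0.01.

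Genes of co-agonist supply and removal summed to 119.95 TPM in replicate 2 and 129 in replicate 1. Srr, which makes D-serine, was at 36.1 and 39.8 TPM, Phgdh, which starts serine synthesis, at 23.3 and 25.4 TPM, and the serine transporter gene Slc1a4 at 17.4 and 17.9 TPM. Srr was lower in replicate 2 and none was higher among the 7 measured. Slc6a9, the glycine transporter gene, had the widest ratio, −0.10, within its counting interval, but was lower beyond it by read-based counts, at −0.14. Dao, which degrades D-serine, and the glycine transporter gene Slc6a5 were too low to measure by alignment-based counts. By read-based counts Slc6a5 was measured, at 0.39 and within its counting interval (−0.67 to 1.59).

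Synapse-to-nucleus genes were Nsmf (195 TPM in replicate 2 and 200 in replicate 1), Crtc1 (59.2 and 55.2), Creb1 (21.7 and 23.1) and Nos1, the neuronal nitric oxide synthase gene (15.2 and 16.4). Nsmf and Nos1 were lower in replicate 2 beyond counting error, Nos1 with the widest ratio of the 4, −0.23, though its TPM ratio was −0.10 on the log2 scale. Of the 6 extracellular and receptor partners, the glutamate receptor gene Grm5 was at 88.9 and 92.4 TPM, Nptx2 at 58.5 and 57.0 TPM and the reelin receptor gene Lrp8 at 41.2 and 38.3 TPM. Among these 6, Reln was higher, and Grm5 and Drd1 were lower. Drd1, a dopamine receptor gene that is also in the striatal list, had the widest ratio by counts of all 53 partners, −0.73, and −0.82 by read-based counts. Its TPM differed less, 13.2 in replicate 2 and 17.4 in replicate 1 (a log2 ratio of −0.39), and 13.7 and 14.6 TPM in the read-based quantification.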

How the data were processed

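The members, the partner and marker lists and the measures were chosen with earlier results of these data known. Expected counts and TPM were deposited by the authors per library, calculated from transcriptome alignments (build mm10, GENCODE M21), per the file headers and the deposited notes beside them. The posterior SD of each count and the posterior mean TPM are the authors' values too. The read-based estimated counts and TPM were deposited by the authors from 1 read file per library, with the same annotation, per the deposited notes. The aligner, the quantifiers and the completeness of that file were not given in the sources used here. Each library began from 300 ng of RNA with ERCC spike-ins, per the labels. The labels give separately numbered males under a shared donor record, taken here as a strain record, and the spread between these libraries may be partly technical. The libraries differed beyond sampling noise (chi-square over degrees of freedom 6.42).

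Spike-ins (0.345% of counts in replicate 2 and 0.428% in replicate 1) and rows that name no gene (2.48e-05% and 1.78e-05%) were left out of library sizes. Expected counts were rounded to whole numbers, TMM-normalised with edgeR 4.0.16 in R 4.3.3, and compared with a prior count of 2 where the mean count reached 10. The interval is the exact conditional interval of Clopper and Pearson at 95%. Its code was run on counts simulated with counting error alone. That run cannot show how the interval performs under the added spread between these libraries. Alternatives were spike-in scaling, size factors of DESeq2 1.42.0, other count minimums and prior counts, TPM with pseudocounts of 1 and 0.1, the read-based quantification, subsets of transcripts, rescaled TPM, posterior means and each animal alone. Named transcripts hold at least 5% of their gene's TPM, as the mean over the animals, in either quantification or lead it, except where stated. Named partners are the 3 most abundant and the most different of each list. Shared sequence was counted in 31-base words. Whether reads were counted by strand is not given in the sources used here, and the effect of CAST/EiJ mismatches to the reference was not measured. Some items of the partner lists are not reported here by name.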

Additional observations from a re-analysis of the deposited data

How the results depend on the processing

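No paired analysis was possible because both animals belong to 1 group. Leaving out an animal leaves no ratio between animals, and TPM values give no counting interval. With each animal alone the sum of the 7 genes ranged from 470.1 to 493 TPM, Grin2b over Grin2a from 1.11 to 1.14, Grin1 over the GluN2 sum from 0.714 to 0.727, and the share of Grin1-201 from 33.0% to 37.4%. The sum of the 7 moved to 687 TPM in the read-based quantification, to 1045 TPM when rescaled to nuclear protein-coding genes, and to 320.3 CPM per kilobase. Grin2b over Grin2a turned to 0.918 in the read-based quantification, and moved to 1.42 with transcripts annotated as protein coding only. With full-length coding transcripts only it was 1.08, and 1.05 with the read-based quantification as well. For Grin1 over the GluN2 sum, the same 4 alternatives gave 0.769, 0.709, 0.813 and 0.813. The share of Grin1-201 moved to 21.6% in the read-based quantification, 38.4% by expected counts, 39.6% with protein-coding or full-length transcripts only, and 30.8% by posterior means. Under spike-in scaling 6 members lay beyond counting error, all higher in replicate 2. So did most genes, with 12173 of 18490 higher and 150 lower. The median over all genes was 0.32 under that scaling. The ratios of Grin2c, Grin2d and Grin3a turned to 0.31, 0.27 and 0.23 and were near or below that shift. Grin2c also turned to 0.0057 with a count minimum of 100, and Grin2d to 0.0103 in the read-based quantification, both within counting error. From TPM with pseudocounts of 1 and 0.1, Grin2d turned to 0.0795 and 0.0918, against −0.05 from counts. No member was past 2-fold under any of the 8 alternatives run. The causes were not tested. Of the 12.1% of Grin2a words that other genes share, nearly all lie in Gm7328, which held 58.7 and 50.6 counts, against 25177 and 23691 for Grin2a. Depth limits Grin3b, with 5 and 4 counts.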

Other observations

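Other genes lie over the subunit genes. Kdelr1 overlaps the 5′ end of the Grin2d locus on the opposite strand, where of the Grin2d transcripts only the partial Grin2d-202 reaches, and held 1014 expected counts in replicate 2 and 1007 in replicate 1, against 576 and 609 for Grin2d. Gm45441, antisense to Grin2d, held 152 and 161 counts. Tmem259, opposite Grin3b, held 2311 and 2346 counts, against 5 and 4 for Grin3b. The antisense gene Grin1os held 1 and 0 counts. If reads were not counted by strand, those of overlapping exons cannot be told apart.

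Grina, whose symbol resembles those of the family, encodes a transmembrane protein that is not among the 7 subunits. It was at 208 TPM in replicate 2 and 235 in replicate 1, near Grin1 in level by the alignment-based quantification. By the read-based quantification it was higher than Grin1, at 448 and 506 TPM against 299.5 and 280.6.

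Whether N1 went with C1 could not be settled from these tables. By the read-based quantification N1 was included in 46.1% of forms with C1 in replicate 2 and 37.4% in replicate 1, against 12.3% and 10.6% of forms without C1. In the alignment-based quantification the shares were 18.6% and 31.4% with C1, against 34.6% and 8.77% without, so the animals differed in direction. Posterior means gave 26.9% and 28.4% with C1, against 22.4% and 14.4% without.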
